A study of Homo sapiens with 12 samples.

Results

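S2101, sold as an inhibitor of the histone demethylase LSD1, was compared with untreated culture in 3 human cancer cell lines, MHCC97H, A549 and HCT116. The members were the 6 libraries whose labels name S2101 treatment or normal growth, of 12 libraries in the series, with 1 of each kind per line. MHCC97H is a line from liver cancer, A549 from lung cancer and HCT116 from colon cancer. The S2101 libraries came from cells given 100 µM S2101, and the untreated libraries from cells grown under normal conditions. Neither the labels nor the protocols give the length of treatment or name a vehicle. MHCC97H and A549 grew in DMEM and HCT116 in RPMI 1640, so the line and the medium cannot be told apart where HCT116 differs from the other two. The remaining libraries were from the same lines given 50 µM GSK126, which blocks the histone methyltransferase EZH2, or 1 µM TSA (trichostatin A), an inhibitor of histone deacetylases. The study looked for genes and proteins that become detectable once chromatin enzymes are blocked. Polyadenylated RNA was sequenced, and reads were counted per gene. In all such bulk samples fewer cells of a type and less RNA per cell cannot be told apart.

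LSD1, encoded by KDM1A, removes methyl groups from lysine 4 of histone H3 and works with RCOR1 (CoREST), histone deacetylases and DNA-binding repressors such as GFI1 and REST. Its loss or inhibition is best known for releasing myeloid and neuronal genes that these complexes hold down. The cells' sterol supply is sensed separately: when sterols in the endoplasmic reticulum are low, SCAP carries the transcription factors SREBP1 and SREBP2 to the Golgi for cleavage, and the freed parts switch on enzymes of cholesterol and fatty acid synthesis. Entry into S phase depends on E2F factors, which drive the genes of DNA replication.

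With 1 library per line and condition, the 3 lines served as the replicates. The p-values therefore measure how treatment effects spread between lines. In the main fit, over the 9 libraries without TSA, this spread pools the effects of S2101 and GSK126. With only the 6 S2101 and untreated libraries in the fit, it is the spread of the S2101 effect alone. Nothing in the labels says that cultures were repeated. Levels are CPM (read counts per 1000000 of the library total) normalised with TMM size factors over the 9 libraries without TSA. TSA values, shares of the TSA level and counts of genes above a CPM threshold are per library total, without these factors. Where 3 values stand together they are for MHCC97H, A549 and HCT116 in that order. A log2 ratio is of CPM + 1 within a line, which understates the change of low genes, and a log2 change is the fitted value ± its standard error over the 3 lines.

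Library totals lay between 14468304 and 19061367 counts over the 12 libraries, so 3 reads corresponded to 0.157 to 0.207 CPM, a limit that covers counting error only. Markers of the tissues of origin were present in part. Of 14 liver markers, MHCC97H had 10 at 1 CPM or more with S2101 and 9 untreated. One of them was APOB, at 24.1 and 14.7 CPM. With S2101, A549 had 2 of 10 lung markers at that level, and HCT116 2 of 10 colon markers. Lung and colon counts did not set the line of origin apart. With S2101, MHCC97H and HCT116 also had 2 lung markers each, and MHCC97H had 6 colon markers and A549 3. Liver markers at that level were 5 in A549 and 3 in HCT116. Some of the best-known markers were low or missing. ALB (albumin) was at 0.795 CPM in the S2101 library and 0.541 CPM in the untreated library of MHCC97H, and AFP at 1.31 and 2.64 CPM. NKX2-1 and SFTPC had no read in the A549 pair. CDX2 was present in HCT116 at 11.3 CPM with S2101 and 11.7 CPM untreated, while VIL1 was at 0 and 0.113 CPM. MHCC97H had 2416 CPM of KRT20, a keratin of the gut lining, with S2101, against 1118 CPM untreated. Defining markers of leukocytes and red cells were near 0 in all 6 libraries, with PTPRC at most 0.284 CPM and no read for CD3E or HBB.

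The S2101 library of A549 stood apart before any other result. In each line, genes below 0.1 CPM in the untreated and GSK126 libraries and at 5 CPM or more with TSA were set against the S2101 library. In A549 all 12 such genes had reads, at a median of 9.664% of their TSA level and a range of 3.515 to 11.86%. In MHCC97H the median over 45 genes was 0.165%, and in HCT116 the median over 5 genes was 0%. Results whose call, direction or size depended on the A549 pair are therefore also given without it, and what brought this profile into the library was not tested.

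KDM1A itself (chr1:23019468-23083689, GRCh38) was at 91.9, 91.3 and 214 CPM with S2101, against 101, 133 and 245 CPM in untreated cells. It was lower in all 3 lines, with log2 ratios of -0.14, -0.54 and -0.20, and the fitted change of -0.30 ± 0.14 did not pass the test (edgeR, adjusted p = 0.367). Per transcript length, its mean was 44.1 RPKM with S2101 and 51.9 RPKM untreated. S2101 is described as acting on the protein, so the transcript level is no check that it was inhibited. Of 19 tested genes for LSD1 and its corepressor partners, none had an unadjusted p under 0.05, and their median change was -0.07 (-0.02 without the A549 pair). Of the myeloid read-outs of LSD1 inhibition, several were at or near the detection limit. Only 6 of 11 listed myeloid genes had enough reads to test, with a median change of 0.41, or 0.65 without the A549 pair, and medians by line of 0.49, -0.02 and 0.10. GFI1B had no read in any of the 6 libraries. ITGAX (CD11c, an integrin of myeloid cells) was the 1 with an unadjusted p under 0.05, at 17.1, 16.3 and 6.72 CPM with S2101 against 11.4, 5.71 and 4.07 CPM untreated, a change of 0.89 ± 0.35 (adjusted p = 0.306). Among 7 flavin-dependent amine oxidases, the enzyme family to which LSD1 belongs, 2 were higher at an unadjusted p under 0.05, against 7.85% of all genes. Without the A549 pair none was, against 951 of 15620 genes tested. The median change was 0.19 (0.09 without that pair). One of the 2 was MAOA, which degrades monoamines, at 60, 4.46 and 16 CPM with S2101 and 34.4, 3.12 and 14.3 CPM untreated (0.48 ± 0.19, adjusted p = 0.307).

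Of 16201 genes tested with edgeR's quasi-likelihood fit, with the line as a term and the spread estimated over 9 libraries, 0 passed an adjusted p of 0.05, which is 0% of the genes tested, and the lowest adjusted p was 0.0695. At an unadjusted p under 0.05 there were 1271 genes higher (7.85%) and 1029 lower (6.35%), 2300 in all. With only the 6 libraries in the fit, 22 of 15898 genes rose (0.138%) and 3 fell (0.0189%). DESeq2 on the 9 libraries called 156 higher (1.3%) and 48 lower (0.4%) of the 12012 genes to which it gave an adjusted p. Which lines were included moved the 6-library count widely. It was 95 without the A549 pair, namely 77 higher (0.503%) and 18 lower (0.118%), and 24 of the 25 were among them. Without the HCT116 pair it was 1066, and without the MHCC97H pair 0. By direction alone, 3258 genes (20.1%) were higher in all 3 lines and 3185 (19.7%) were lower. At least 1.5-fold in every line, a cutoff chosen after the data were seen, 96 genes were higher (0.593%) and 21 lower (0.13%). In MHCC97H and HCT116 alone, 160 (0.988%) and 63 (0.389%) were. The median change over all genes was 0.02.

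**Figure D1:**
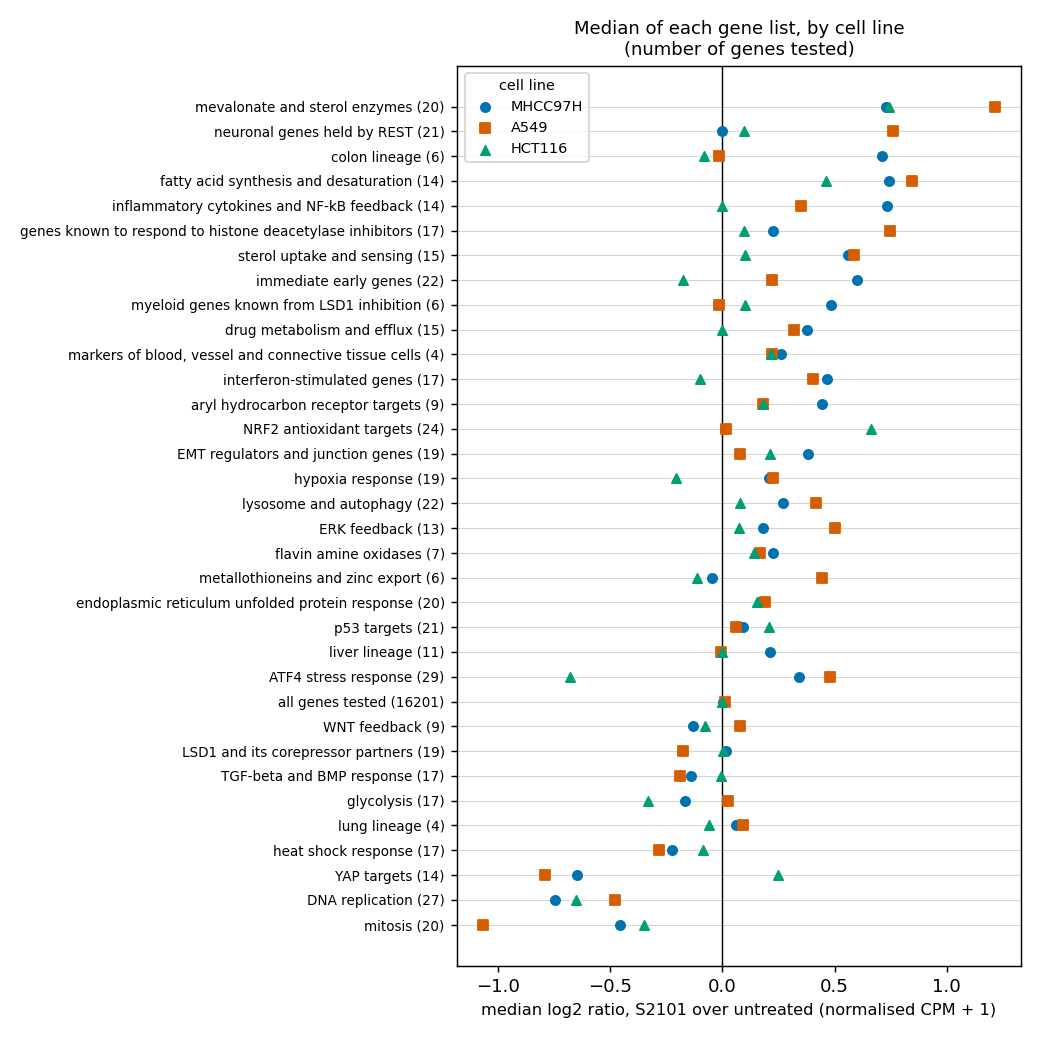
Median log2 ratio of S2101 over untreated normalised CPM + 1 for each gene list (rows, with the number of genes tested), with 1 point per cell line. Sterol enzymes lie to the right in all lines at 0.73, 1.22 and 0.74, replication genes to the left at -0.74, -0.48 and -0.65, and the ATF4 and YAP lists have HCT116 on the opposite side from the other lines.

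The enzymes that make cholesterol were higher with S2101 in every line. All 20 listed enzymes of the mevalonate and sterol pathway were higher in all 3 lines, a pattern that 20.1% of all genes showed, and 10 of the 20 were at least 1.5-fold higher in every line, against 0.593% of all genes. Their median change was 1.00, and 0.83 without the A549 pair. The unadjusted p was under 0.05 for 19 of them, against 7.85% of all genes. In the 6-library fit 4 enzymes rose, among them FDFT1, SQLE and DHCR7, against 0.138% of all genes. Without the A549 pair that fit had 9, against 0.503% of all genes, with TM7SF2, HMGCS1, MVD and MSMO1 among those added. DESeq2 called 16 of the 20 higher, against 1.3% of the genes to which it gave an adjusted p. Subtracting the TSA share from the A549 library left the median at 1.02.

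FDFT1, squalene synthase, which commits the pathway to sterols, had 402, 338 and 248 CPM with S2101 and 194, 129 and 104 CPM untreated. All S2101 values lay above all untreated values. Its change of 1.23 ± 0.13 had the lowest p of any gene (adjusted p = 0.0695, and 0.0268 in the 6-library fit). SQLE, which puts the oxygen onto squalene, was at 343, 309.6 and 143 CPM with S2101, against 189, 140.3 and 71.3 CPM untreated. DHCR7, which makes cholesterol in the last step of one branch, reached 257, 249.9 and 137 CPM with S2101, against 124, 92.9 and 80.7 CPM untreated. Both were higher in every line, with changes of 1.00 ± 0.14 and 1.08 ± 0.15, although the HCT116 values with S2101 lay within the range of the untreated lines for SQLE.

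TM7SF2, a sterol reductase, had the largest change of the 20, at 9.94, 27.6 and 28.9 CPM with S2101 against 2.03, 4.32 and 13.6 CPM untreated (1.98 ± 0.28, adjusted p = 0.0786). MSMO1, a sterol methyl oxidase, was at 223, 179 and 101 CPM with S2101 and 127, 51.5 and 32.6 CPM untreated (1.38 ± 0.23, adjusted p = 0.116). HMGCS1, an early enzyme of the mevalonate route, stood at 135, 571 and 238 CPM with S2101 against 82.6, 289 and 66.3 CPM untreated (1.11 ± 0.31, adjusted p = 0.244). HCT116 had the largest ratio for HMGCS1, whereas A549 had it for most of the other enzymes. The smallest change of the group was that of PMVK, phosphomevalonate kinase, with 45.4, 43.5 and 26.2 CPM with S2101 and 42, 39.2 and 24.3 CPM untreated (0.12 ± 0.12).

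**Figure D2:**
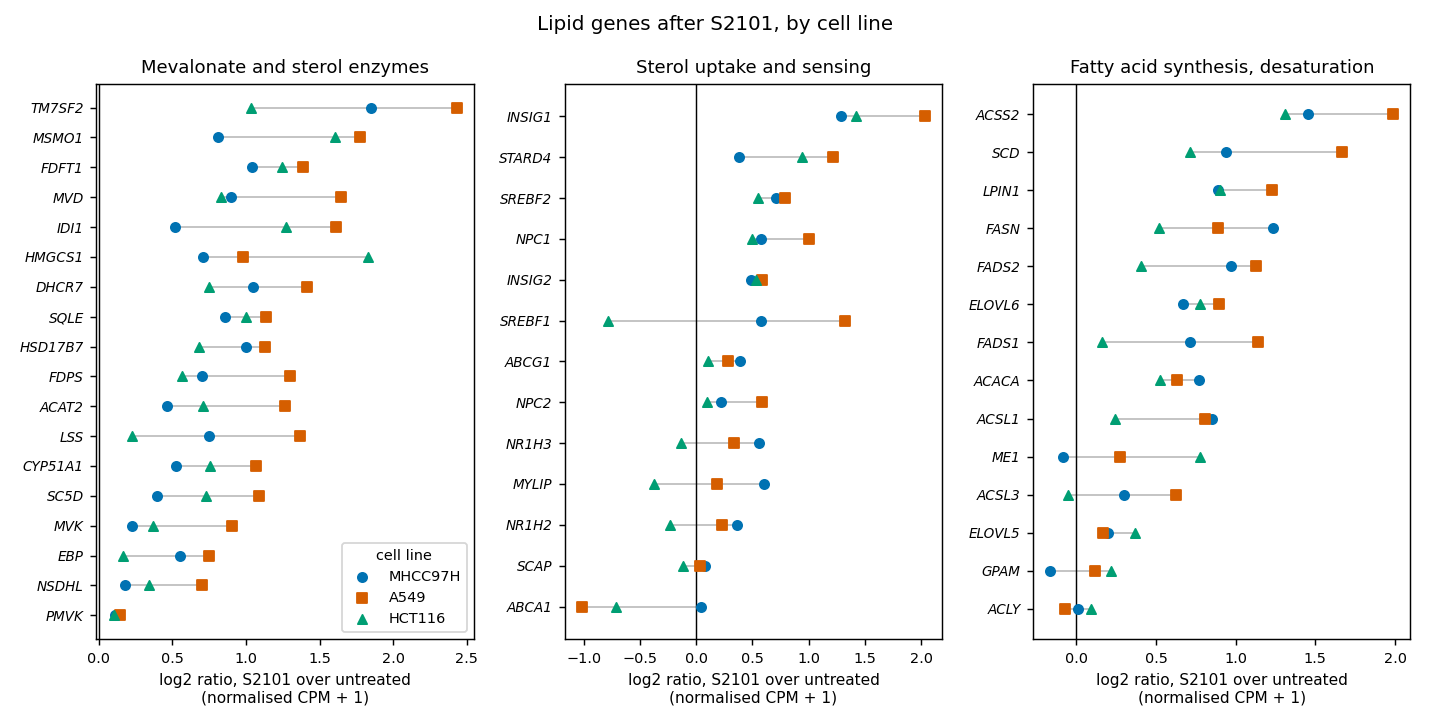
Log2 ratio of S2101 over untreated normalised CPM + 1 for 18 of 20 listed genes of sterol synthesis, 13 of 15 of sterol uptake and sensing, and all 14 tested of fatty acid synthesis, with 1 point per cell line and a grey bar over the range of the lines. The 18 of 20 sterol enzymes shown lie right of 0 in all lines, PMVK nearest to 0 and TM7SF2 farthest, while SREBF1 and ABCA1 spread over both sides.

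Genes that bring sterol in or sense it were higher too, with more exceptions. Of 15 listed, 9 were higher in all 3 lines, against 20.1% of all genes, and 7 were higher at an unadjusted p under 0.05, against 7.85%, with a median change of 0.43 (0.35 without the A549 pair). INSIG1 (chr7:155297878-155310235), the membrane protein that holds SCAP back and is itself switched on by SREBP, rose in the 6-library fit (adjusted p = 0.0268). It had 266, 244 and 105 CPM with S2101 and 108, 58.8 and 38.6 CPM untreated, a change of 1.59 ± 0.23. Without the A549 pair its adjusted p in the 6-library fit was 0.0031. In the TSA libraries INSIG1 was at 1878, 1371 and 85.2 CPM of the library total. With a TSA share of 9.664% in the A549 S2101 library, the size of the A549 difference in INSIG1 is uncertain.

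The 2 SREBP genes differed. SREBF2, whose product drives sterol genes, was at 135, 173 and 334 CPM with S2101, against 82.4, 99.5 and 228 CPM untreated (0.69 ± 0.11, adjusted p = 0.107). SREBF1, whose product drives fatty acid genes as well, was at 175 and 384 CPM with S2101 in MHCC97H and A549, against 117 and 153 CPM untreated, but in HCT116 at 150.0 CPM with S2101 against 259 CPM untreated. ABCA1, which pumps cholesterol out of the cell under LXR control, was at 129, 23 and 1.61 CPM with S2101 and 125, 47.5 and 3.28 CPM untreated, lower in A549 and HCT116.

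The sterol response element TCACNCCAC was searched on both strands in the 250 bases before each gene's start in the RefSeq promoters of GRCh38.p14. It was found in 1 of 12 promoters of the uptake and sensing list, 0 of 15 of the sterol enzymes and 0.883% of all 35116 promoters, so this strict spelling marked few of these genes. The 1 promoter was that of SREBF2 (chr22:41832957-41833056, plus strand), shown because the gene encodes the sterol factor itself. The element, 133 bases before the start, is in capitals.
SREBF2: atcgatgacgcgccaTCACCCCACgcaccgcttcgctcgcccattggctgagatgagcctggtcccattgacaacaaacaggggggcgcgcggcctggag

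Fatty acid genes followed with smaller differences. Of 14 tested genes of fatty acid synthesis and desaturation, 10 were higher in all 3 lines, 4 of them at least 1.5-fold in every line, and 9 had an unadjusted p under 0.05, against 20.1%, 0.593% and 7.85% of all genes. Their median change was 0.66, and 0.61 without the A549 pair. Both ACSS2 and LPIN1 rose in the 6-library fit, against 0.138% of all genes. DESeq2 called 8 of the 14 higher, against 1.3% of the genes to which it gave an adjusted p. ACSS2, which makes acetyl-CoA from acetate, was at 118, 71.8 and 65.9 CPM with S2101, against 42.5, 17.3 and 26 CPM untreated, with no overlap between conditions (1.59 ± 0.21, adjusted p = 0.0786, and 0.0268 in the 6-library fit). LPIN1, a phosphatidate phosphatase, was at 79, 187 and 39.6 CPM with S2101 and 42.3, 79.3 and 20.8 CPM untreated (1.02 ± 0.20). FASN, fatty acid synthase, had 1524, 1097 and 1520.0 CPM with S2101 against 648, 593 and 1059 CPM untreated (0.88 ± 0.14, adjusted p = 0.106). SCD, the stearoyl-CoA desaturase, stood at 1820.0, 3519 and 2302 CPM with S2101 and 949, 1110.0 and 1408 CPM untreated, the A549 pair having the largest ratio. ACLY, which supplies acetyl-CoA from citrate, was nearly level at 519.7, 1039 and 443 CPM with S2101 and 516, 1092 and 416 CPM untreated (0.01 ± 0.14). LPCAT1, a phospholipid acyltransferase outside the lists, also rose in the 6-library fit (adjusted p = 0.0358), at 219.6, 249 and 106 CPM with S2101 against 84.6, 123 and 59.5 CPM untreated.

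**Figure D3:**
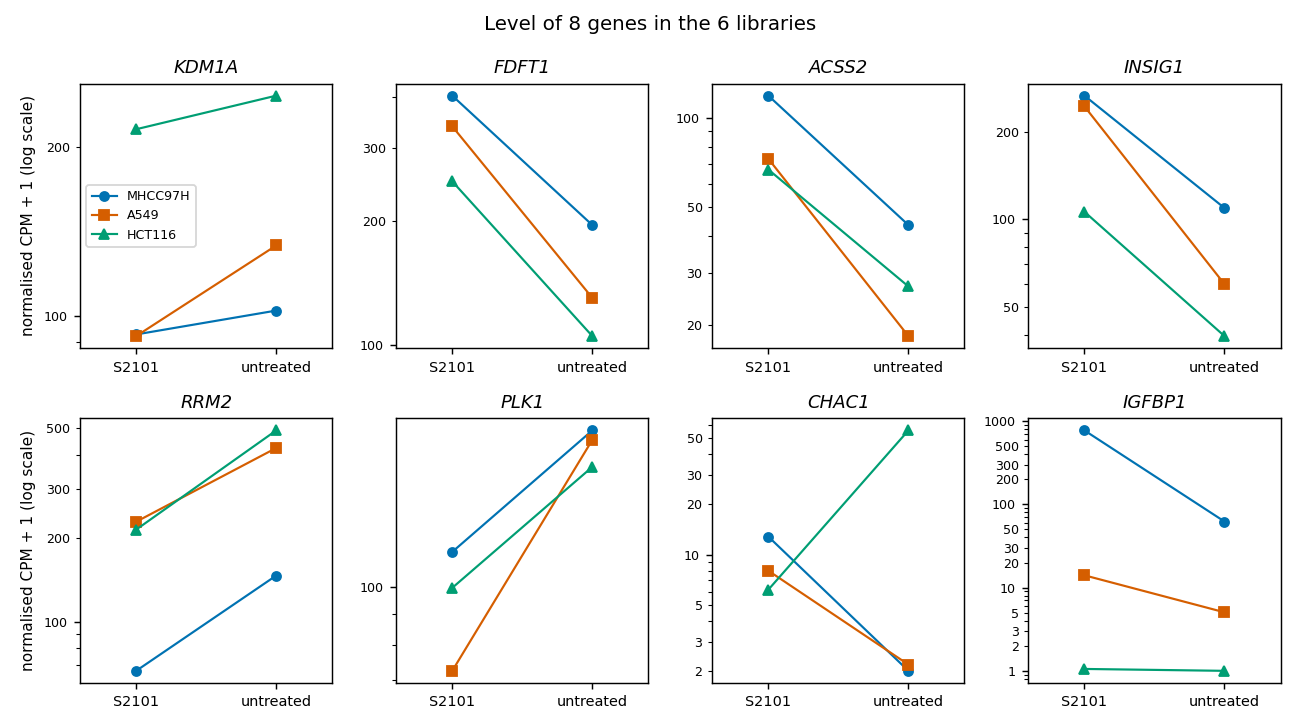
Normalised CPM + 1 (log scale) of 8 genes in the 6 libraries, S2101 left and untreated right, with 1 line joining the pair of each cell line. FDFT1, ACSS2 and INSIG1 are higher with S2101 in every line, RRM2 and PLK1 lower, CHAC1 is lower with S2101 in HCT116 alone, and IGFBP1 is high in MHCC97H at 773 CPM with S2101 against 61.2 CPM untreated.

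Genes of the cell cycle lay on the other side. All 27 listed DNA replication genes and all 20 listed mitosis genes were lower in all 3 lines, against 19.7% of all genes. Among the replication genes 17 were lower at an unadjusted p under 0.05 and the median change was -0.62, and among the mitosis genes 16 and -0.67, where 6.35% of all genes were lower at that p. The order of the lines differed between the lists. By line, the replication medians were -0.74, -0.48 and -0.65 and the mitosis medians -0.46, -1.07 and -0.35, so A549 had the smallest shift of replication genes and the largest of mitosis genes. Differences between lines could not be tested with 1 pair each. Without the A549 pair the medians were -0.72 for replication and -0.42 for mitosis. At least 1.5-fold lower in every line were 5 replication genes and 1 mitosis gene, against 0.13% of all genes, and in MHCC97H and HCT116 alone 15 and 1, against 0.389%.

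RRM2 (chr2:10122568-10211010), the regulated subunit of ribonucleotide reductase, fell in the 6-library fit (adjusted p = 0.0268, against 0.276 with the spread of 9 libraries). It had 65.4, 228 and 214 CPM with S2101 and 146, 421 and 488 CPM untreated, and every line's pair moved by a similar ratio. TYMS, thymidylate synthase, which also feeds DNA synthesis with nucleotides, fell there too (adjusted p = 0.0495), with 55.9, 75.3 and 133 CPM with S2101 and 104, 138 and 217 CPM untreated. Without the A549 pair 6 replication genes fell in that fit, RRM2, TYMS, GINS2, MCM2, MCM10 and CCNE2, against 0.118% of all genes. GINS2, a subunit of the replicative helicase, had the lowest p of the list over 9 libraries, at 14.7, 38.9 and 38.3 CPM with S2101 against 32.3, 63.1 and 69.8 CPM untreated (-0.88 ± 0.22, adjusted p = 0.225). MCM6, from the ring of that helicase, was at 81.5, 154 and 142 CPM with S2101 and 142, 215 and 217 CPM untreated (-0.62 ± 0.26, adjusted p = 0.328). UHRF1, which copies DNA methylation behind the fork and was in no list, fell in the 6-library fit (adjusted p = 0.0388), with 125, 101 and 146 CPM with S2101 against 213, 180.2 and 293 CPM untreated.

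Of the mitosis genes none passed the 6-library fit. DESeq2 called 1 of the 20 lower, against 0.4% of the genes to which it gave an adjusted p. PLK1, a kinase of mitotic entry and spindle assembly, had the lowest p, at 114, 71.4 and 98.7 CPM with S2101 and 182, 175 and 158 CPM untreated. All S2101 values lay below all untreated values (-0.91 ± 0.23, adjusted p = 0.225). MKI67, the proliferation marker Ki-67, was at 459, 465 and 841 CPM with S2101 against 679, 970.4 and 1131 CPM untreated. CDC20, an activator of the anaphase-promoting complex, had log2 ratios of -0.60, -1.38 and -0.36.

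**Figure D4:**
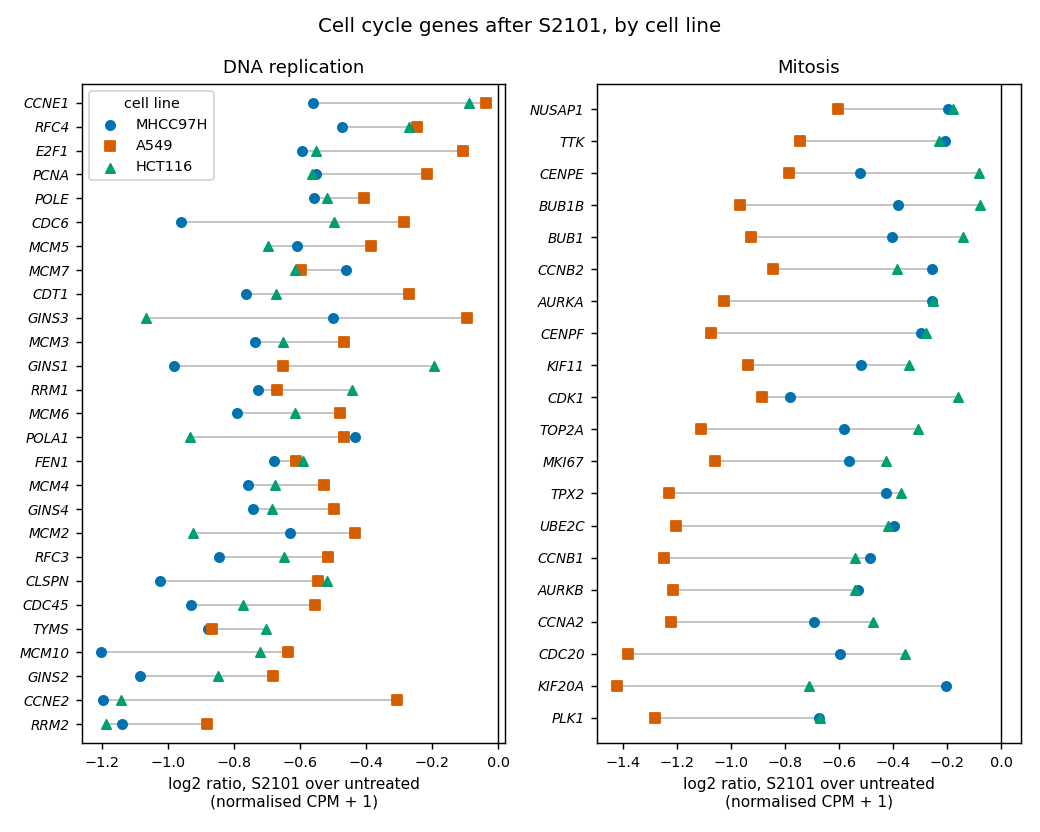
Log2 ratio of S2101 over untreated normalised CPM + 1 for the listed genes of DNA replication and mitosis, with 1 point per cell line and a grey bar over their range. All points lie left of 0, and A549 is the leftmost point of most mitosis genes but not of replication genes such as CCNE2.

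The E2F site TTTNGCGC, a motif added after the data were seen, was in 6 of 23 replication promoters (CDT1, E2F1, MCM6, MCM7, POLA1 and POLE), 1 of 16 mitosis promoters and 1.51% of all promoters. Promoters of MCM6 (chr2:135876511-135876610, minus strand) and E2F1 (chr20:33686386-33686485, minus strand) are shown because MCM6 holds paired matches on both strands and E2F1 encodes the factor. Matches on either strand are in capitals, and those of MCM6 overlap in pairs.
MCM6: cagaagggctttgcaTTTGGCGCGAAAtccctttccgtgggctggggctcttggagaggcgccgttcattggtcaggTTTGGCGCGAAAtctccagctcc
E2F1: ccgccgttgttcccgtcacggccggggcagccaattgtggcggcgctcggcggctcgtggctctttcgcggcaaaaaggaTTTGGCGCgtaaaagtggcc
E2F1 itself was at 38.3, 61.5 and 38 CPM with S2101 against 58.4, 66.2 and 56.2 CPM untreated.

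The 12 genes with the lowest p among those lower in every line had varied roles, and none passed the test over 9 libraries. RCC1, the exchange factor that charges the transport GTPase Ran, was at 88, 87.6 and 154 CPM with S2101 against 123, 163 and 235 CPM untreated (-0.67 ± 0.12, adjusted p = 0.119). RAN itself was at 510.3, 509.8 and 375 CPM with S2101 and 738, 774 and 529 CPM untreated (-0.55 ± 0.12, adjusted p = 0.197). IPO5, an import receptor, was at 81.7, 191 and 324 CPM with S2101 against 115, 292 and 428 CPM untreated. RBMX, a splicing factor, had 198, 230 and 166 CPM with S2101 against 318, 338 and 236 CPM untreated. KIAA0101, which encodes a PCNA-binding protein, was at 64.8, 76.3 and 51.3 CPM with S2101 and 105, 125 and 100.1 CPM untreated (-0.79 ± 0.16). FBXO5, an inhibitor of the anaphase-promoting complex, was at 24, 20.6 and 40.2 CPM with S2101 against 55.2, 42.9 and 55.9 CPM untreated. H19, an imprinted long noncoding RNA, was at 395, 1.97 and 1.99 CPM with S2101 and 559, 4.85 and 3.68 CPM untreated. RTKN2, C19orf48, TAF9B and COL5A1 had adjusted p between 0.142 and 0.197. COL5A1, a fibrillar collagen chain, had nearly all its reads in A549, at 69.9 CPM with S2101 and 164 CPM untreated.

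Beyond lipids, the genes that rose in the 6-library fit had varied roles. TRIM31, a ubiquitin ligase of the gut, had the largest change at 2.75 ± 0.42 over 9 libraries (adjusted p = 0.0786, and 0.0268 in the 6-library fit). It had 153 CPM with S2101 and 20.4 CPM untreated in MHCC97H, 3.63 and 0.398 CPM in A549, and 0.108 and 0.113 CPM in HCT116, so HCT116 carried too few reads to add to the result. LGALS4, a gut lectin, was at 395, 2.04 and 0.215 CPM with S2101 and 161, 0.597 and 0.0566 CPM untreated, again mostly in MHCC97H. WIPI1, which binds phosphoinositides on forming autophagosomes, had 52.5, 27.8 and 38 CPM with S2101 against 21.2, 7.3 and 16.7 CPM untreated (adjusted p = 0.0291 in the 6-library fit). SLC17A5, a transporter that exports sialic acid from lysosomes, had 97.8, 33.6 and 48.2 CPM with S2101 and 42.8, 14.9 and 26.7 CPM untreated (adjusted p = 0.0291 in that fit). Of the 22 listed lysosome and autophagy genes 10 were higher in all 3 lines and 6 were higher at an unadjusted p under 0.05, against 20.1% and 7.85% of all genes. The median change was 0.22, and the medians by line were 0.27, 0.42 and 0.08. Without the A549 pair 2 were higher at that p, against 951 of 15620 genes tested, and the median was 0.16. ABCA3, a lipid transporter of lung surfactant, was at 5.51, 72.3 and 22.6 CPM with S2101 and 2.64, 37.5 and 8.82 CPM untreated (1.13 ± 0.14, adjusted p = 0.0499 in the 6-library fit and 0.0534 there without the A549 pair). ITGA2, a collagen receptor subunit, had 230.5, 142 and 82 CPM with S2101 and 125, 72.4 and 51.8 CPM untreated. IFITM10 and KIAA1244 rose there as well. COBL and C6orf223 were among the 12 higher genes of lowest p, with changes of 0.96 ± 0.13 and 1.36 ± 0.20 (adjusted p = 0.0786 for both), and did not pass the 6-library fit.

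A further 6 of the 22 genes, AQP2, GSTM1, MGC50722, RARB, SPIC and ZCWPW2, had a common pattern that was noticed after their values were seen. Each had its highest level of all 12 libraries in MHCC97H given GSK126, which held for 2 of the other 19 called genes. AQP2, a kidney water channel, was at 26.2, 18.5 and 38 CPM with S2101, 65.5, 11.3 and 25.5 CPM with GSK126 and 8.12, 5.78 and 7.41 CPM untreated. MGC50722 followed it at 90.7, 60.3 and 133 CPM with S2101, 242, 38.8 and 96.8 CPM with GSK126 and 33, 14.3 and 26.5 CPM untreated. RARB, a retinoic acid receptor, was at 85, 68.7 and 68.7 CPM with S2101 and 34, 32.7 and 18.9 CPM untreated. Whether reads are shared between these genes and a common sequence was not tested, and their levels are uncertain for that reason.

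MHCC97H had a response of its own in size. IGFBP1 (chr7:45888488-45893660), a secreted binding protein for insulin-like growth factors, was at 773 CPM with S2101 and 61.2 CPM untreated in that line. A549 had 13.1 and 4.05 CPM, and HCT116 0.0538 and 0 CPM. When A549 was left out of the 9-library fit it was the 1 gene that rose (adjusted p = 0.0263), and with A549 it did not pass (adjusted p = 0.116). With HCT116 near 0, that call rested on the MHCC97H pair alone. Next by ratio in MHCC97H were genes of inflammation. CCL20, a chemokine, was at 30.1 CPM with S2101 and 1.69 CPM untreated. BIRC3, an NF-kB target that limits cell death, was at 171 CPM with S2101 against 19.2 CPM untreated, while in A549 it was at 48.4 and 58.1 CPM. UBD, a ubiquitin-like modifier, was at 30.6 CPM with S2101 against 3.25 CPM untreated, and IL1B at 17.7 against 2.37 CPM. These genes had almost no reads in HCT116, apart from BIRC3 at 12.1 and 4.24 CPM. The 14 tested inflammatory genes had medians of 0.74, 0.35 and 0.00 by line. The 6-library fit without the A549 pair called IL1B, CCL20 and BIRC3, but for IL1B and CCL20 this rested on the MHCC97H pair alone, since HCT116 had almost no reads. The lowest ratios in MHCC97H were those of BCYRN1, a short noncoding RNA, CAV1, AMOTL2 and UNC13D. CAV1, the coat protein of caveolae, was at 1779, 193 and 257 CPM with S2101 and 4989, 536 and 281 CPM untreated (-1.10 ± 0.36, adjusted p = 0.271).

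The largest ratios in A549 belonged to genes that stood higher still with TSA. These were DHRS2, TXNIP, SLC17A7 and ATP1B2. DHRS2, a dehydrogenase known to respond to deacetylase inhibitors, was at 204 CPM with S2101 and 8.03 CPM untreated in A549, and at 2797 CPM with TSA, where the S2101 value on that scale was 210.6 CPM. In HCT116 it was at 7.69 CPM with S2101 against 19.2 CPM untreated. TXNIP, which binds thioredoxin, was at 26.2 CPM with S2101 and 0.465 CPM untreated in A549, with 334 CPM under TSA. SLC17A7, a vesicular glutamate transporter, was at 20.2 and 0.597 CPM, with 259.7 CPM under TSA. ATP1B2, a sodium pump subunit, was at 27.9 and 1.86 CPM, with 382 CPM under TSA. Of 29 genes below 0.1 CPM untreated and at 1 CPM or more with S2101 in A549, all 29 were at 1 CPM or more with TSA, 27 were higher there than with S2101, and 8 were at 1 CPM or more with GSK126.

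Gene lists tied to deacetylase inhibition also had their highest median in A549. The 21 tested neuronal genes held by REST had medians of 0.00, 0.76 and 0.10 by line. With GSK126 against the same untreated libraries, the medians were 0.00, 0.59 and 0.04, so the A549 rise was not particular to S2101. CHGA, a granule protein, was at 5.92 CPM with S2101 and 0.597 CPM untreated in A549, with 63.9 CPM under TSA. Their median change of 0.76 was 0.19 without the A549 pair and 0.21 with the TSA share subtracted. For 17 genes known to respond to deacetylase inhibitors, medians by line were 0.225, 0.748 and 0.095 with S2101 and 0.461, 0.494 and 0.257 with GSK126. Their fitted median of 0.43 was 0.21 without the A549 pair and -0.15 with the share subtracted. The subtraction lowers genes high with TSA by construction. DHRS2 and TXNIP were at 7.53% and 8.09% of their A549 TSA level, under the 9.664% subtracted. The size and sign after subtraction are therefore no separate result for these lists. In A549 the lowest ratios were those of GFRA1, a receptor of the GDNF family, CCDC80, SYNE1 and NPTX1. SYNE1, a nuclear envelope protein, was at 72 CPM with S2101 in A549 and 257 CPM untreated, and was at 48.4 CPM with TSA.

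HCT116 ran against the other lines in stress genes. Of 29 tested ATF4 stress response genes, 28 were lower with S2101 in HCT116, where 50.2% of all genes were lower. In MHCC97H 23 were higher, against 50.6% of all genes, and in A549 22, against 51.3%. The medians were 0.34, 0.48 and -0.68. ATF4 is the transcription factor that cells make when amino acids run short or the endoplasmic reticulum is overloaded. Its own transcript was at 311, 334 and 394 CPM with S2101, against 188, 276 and 657 CPM untreated. CHAC1 (chr15:40953471-40956512), which breaks down glutathione, was at 11.8, 7 and 5.16 CPM with S2101, against 1.01, 1.2 and 54.4 CPM untreated. The untreated HCT116 library thus had the highest level of the 6. SESN2, a sensor of leucine, had 33.1, 13.7 and 17.3 CPM with S2101 and 22.4, 6.24 and 81.1 CPM untreated. DDIT4, which holds mTORC1 down, had 149, 305 and 127 CPM with S2101 against 36.6, 121 and 395 CPM untreated. In DDIT3 (CHOP) the values were 82.7, 26.4 and 22.4 CPM with S2101 and 65.1, 12 and 60.3 CPM untreated. GDF15, a stress cytokine, was the exception, at 212, 98.9 and 123 CPM with S2101 and 51.2, 17.1 and 106 CPM untreated. NUPR1, a stress regulator, had the lowest p of the list, at 97.4 and 19.2 CPM with S2101 in MHCC97H and A549 against 31.7 and 6.9 CPM untreated, and under 1 CPM in HCT116 (1.28 ± 0.33, adjusted p = 0.225). ARRDC4, an arrestin outside the list, showed the same split at 16, 7 and 3.5 CPM with S2101 and 12.7, 2.32 and 24.7 CPM untreated.

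The composite site TGATGNAA, to which ATF4 binds with C/EBP proteins, was in 4 of 24 promoters of the list (ASNS, ATF3, CHAC1 and FGF21) and in 3.14% of all promoters. CHAC1 (chr15:40953247-40953346, plus strand) is shown because it had the widest split between lines, and ASNS (chr7:97872409-97872508, minus strand), asparagine synthetase, as the textbook target. The site is in capitals, and in CHAC1 it reads on the other strand.
CHAC1: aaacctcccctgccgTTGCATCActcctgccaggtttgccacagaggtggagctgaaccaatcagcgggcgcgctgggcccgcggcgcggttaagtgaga
ASNS: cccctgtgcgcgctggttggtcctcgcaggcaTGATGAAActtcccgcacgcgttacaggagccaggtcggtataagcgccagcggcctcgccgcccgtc
ASNS was at 75.6, 138 and 284 CPM with S2101 and 62.9, 91.9 and 342 CPM untreated, a far narrower split than that of CHAC1.

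**Figure D5:**
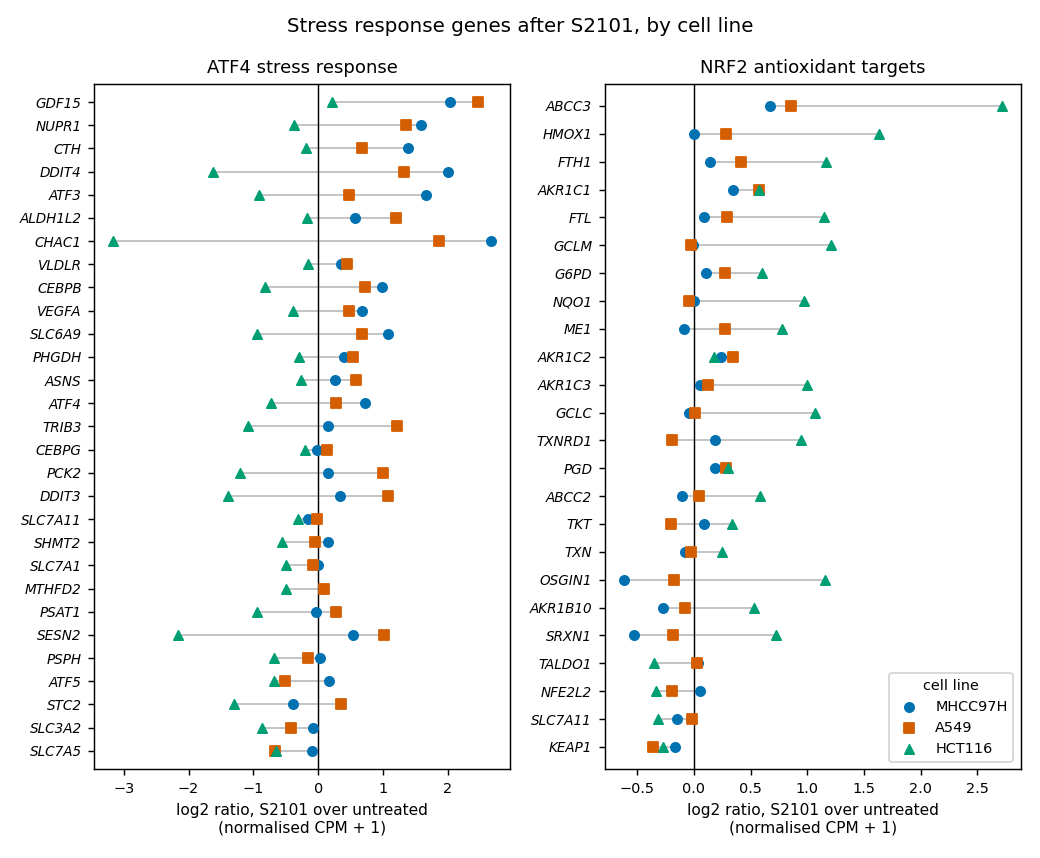
Log2 ratio of S2101 over untreated normalised CPM + 1 for the listed ATF4 stress genes and NRF2 antioxidant genes, with 1 point per cell line and a grey bar over their range. HCT116 is left of 0 for 28 of 29 ATF4 genes and right of 0 for 20 of 24 NRF2 genes, whereas the other lines lie near 0 for most NRF2 genes.

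NRF2 antioxidant targets were higher mainly in HCT116. There, 20 of 24 were higher, against 47.2% of all genes, with a median of 0.66, compared with 12 of 24 (median 0.01) in MHCC97H and 13 of 24 (median 0.02) in A549. The pattern was not particular to S2101. With GSK126 against the same untreated libraries, the medians were -0.096, 0.033 and 0.748. In the genes given here, the other two lines had higher untreated levels than HCT116. GCLM, a subunit of the enzyme that starts glutathione synthesis, was at 538, 207 and 64.5 CPM with S2101 and 540.5, 210.0 and 27.4 CPM untreated. NQO1, a quinone reductase, was at 1136, 1475 and 501 CPM with S2101 against 1139, 1523 and 254 CPM untreated. HMOX1, heme oxygenase, had 421, 226 and 45.3 CPM with S2101 and 422, 186 and 14 CPM untreated. FTH1, the ferritin heavy chain, was at 4273, 3904 and 1680.0 CPM with S2101, against 3879, 2935 and 748 CPM untreated. ABCC3, a transporter of conjugated organic anions, had the largest ratio in HCT116, at 299, 580.2 and 119.5 CPM with S2101 against 187, 321 and 17.4 CPM untreated. Search for the antioxidant element TGACNNNGC found it in 4 of 18 promoters of the list and in 10.9% of all promoters.

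YAP targets split in the opposite sense. They were lower in 10 of 14 genes in MHCC97H and 12 of 14 in A549, against 46.8% and 47.6% of all genes, and higher in 13 of 14 in HCT116, against 47.2%. The medians by line were -0.65, -0.79 and 0.25, and the fitted median of -0.28 was -0.06 without the A549 pair. GSK126 showed the same split against the same untreated libraries, with medians of -0.234, -1.341 and 0.345. AMOTL2, which binds YAP and is also its target, was at 20.6, 61.3 and 102 CPM with S2101 against 53.5, 168 and 64.4 CPM untreated. CYR61, a matricellular protein, was at 2.95, 37.9 and 27.5 CPM with S2101 and 9.2, 98.6 and 16.2 CPM untreated.

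No gene of the other lists passed over 9 libraries. The heat shock list had a median of -0.22, with 8 of 17 genes lower in all lines, against 19.7% of all genes. At an unadjusted p under 0.05, 7 were lower, against 6.35%. Without the A549 pair 1 of 17 was lower at that p, against 608 of 15620 genes tested, and the median was -0.24. HSPD1, a mitochondrial chaperonin, was at 1024, 913 and 1170 CPM with S2101 against 1419, 1378 and 1468 CPM untreated (-0.46 ± 0.13, adjusted p = 0.24). The median was 0.16 for 20 genes of the unfolded protein response of the endoplasmic reticulum, led by DNAJB9, a chaperone, at 77.6, 25.1 and 12.4 CPM with S2101 and 38.4, 10.2 and 8.77 CPM untreated. For 21 p53 targets it was 0.14, with 6 higher and 3 lower at an unadjusted p under 0.05, against 7.85% and 6.35% of all genes. CDKN1A (p21), a brake on the cell cycle, was at 109, 70.7 and 170.5 CPM with S2101 against 29.2, 42.5 and 139 CPM untreated (0.97 ± 0.26, adjusted p = 0.24). TP53INP1, a p53 target that also responds to deacetylase inhibitors, had 45.3, 19 and 28 CPM with S2101 and 10.6, 7.9 and 20 CPM untreated.

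Signalling lists were mixed. Immediate early genes had a median of 0.42 over 22 genes, with 20 higher in MHCC97H, against 50.6% of all genes, but 17 lower in HCT116, against 50.2%, and JUND, an AP-1 subunit, at 95.4, 75.7 and 73.4 CPM with S2101 against 43.5, 36.4 and 80.7 CPM untreated. ERK feedback genes had 0.20 over 13 (0.10 without the A549 pair), with DUSP4, an ERK phosphatase, at 264, 437 and 178 CPM with S2101 and 177, 224 and 72.5 CPM untreated. Interferon-stimulated genes had 0.33 over 17 (0.24 without the A549 pair), with medians by line of 0.47, 0.40 and -0.10. In HCT116 13 of the 17 were lower, against 50.2% of all genes. OAS1, which senses double-stranded RNA, led the list. It was at 157 and 18 CPM with S2101 in MHCC97H and A549, against 66.8 and 10.9 CPM untreated. The medians of TGF-beta and BMP response (-0.10 over 17), WNT feedback (-0.04 over 9) and glycolysis (-0.17 over 17) lay below that of all genes, and without the A549 pair the WNT median was -0.20 and the glycolysis median -0.27. PGAM1, a glycolytic mutase, was at 174, 346 and 263 CPM with S2101 against 239, 442 and 457 CPM untreated. The 19 hypoxia response genes had 0.22, the 19 EMT and junction genes 0.27 and the 6 metallothioneins and zinc exporters 0.16. The last of these turned to -0.19 without the A549 pair. OCLN, a tight junction protein, was at 28.6, 34.4 and 73.5 CPM with S2101 and 13.1, 26.7 and 55 CPM untreated. Drug metabolism and efflux genes had 0.40 over 15 and aryl hydrocarbon receptor targets 0.31 over 9 (0.49 without the A549 pair). CYP3A5, a drug-oxidising cytochrome, was at 100.5 CPM with S2101 in MHCC97H and 32.1 CPM untreated, and CYP1B1, which that receptor induces, at 308 and 86 CPM.

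Markers of tissue identity were summed in each library. Over the colon list, MHCC97H had 2713 CPM with S2101 and 1318 CPM untreated, A549 had 39.4 and 23.0 CPM, and HCT116 had 31.2 and 33.4 CPM, with KRT20 carrying most of the MHCC97H sum. The lung list summed to 7.95, 74.95 and 27.05 CPM with S2101 and 5.14, 40.16 and 13.63 CPM untreated, and ABCA3 made up most of the A549 and HCT116 sums. For the liver list the sums were 126.6, 37.89 and 12.91 CPM with S2101 against 110.6, 50.65 and 13.58 CPM untreated. Markers of blood, vessel and connective tissue cells summed to 228.8, 81.96 and 46.62 CPM with S2101 against 163.1, 52.57 and 35.92 CPM untreated, with CD68 and PECAM1 carrying most of the MHCC97H and A549 sums. The part of other cells in any of these results was not tested, and the defining leukocyte and red cell markers stood at or near 0 as given above.

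S2101 was also set against GSK126, which shares no library with it, at 100 µM and 50 µM, so the doses differ and the values stand side by side as such. No gene passed (lowest adjusted p = 0.523, edgeR over 9 libraries), DESeq2 called 24, and 718 genes (4.43%) were higher and 786 (4.85%) lower with S2101 at an unadjusted p under 0.05. The sterol enzymes were lower with S2101 than with GSK126, by a median of -0.63, and 15 of 20 had an unadjusted p under 0.05. FDFT1 was at 402, 338 and 248 CPM with S2101 and 524, 421 and 391 CPM with GSK126. Against the same untreated libraries, the medians of the sterol enzymes were 0.73, 1.22 and 0.74 for S2101 and 1.28, 1.74 and 1.53 for GSK126. Replication genes were higher with S2101 than with GSK126 by a median of 0.60, 14 of 27 at an unadjusted p under 0.05, and mitosis genes by 0.44, 6 of 20. Their own medians against untreated cells were -0.74, -0.48 and -0.65 for S2101 and -0.58, -1.86 and -1.25 for GSK126 in replication, and -0.46, -1.07 and -0.35 against -0.42, -2.01 and -0.88 in mitosis.

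Single genes that stood apart from GSK126 at the lowest p had few roles in common. Higher with S2101 were GLDC, the glycine decarboxylase, at 0.114, 48.8 and 9.95 CPM with S2101 and 0.13, 14.2 and 3.33 CPM with GSK126 (1.64 ± 0.26), HSPA4L, a chaperone (0.81 ± 0.14), NEIL3, a DNA glycosylase (1.25 ± 0.23), USP18 (0.96 ± 0.20) and PALD1 (0.90 ± 0.19). Lower ones included STC1, COL11A2, ASIC3 and MAGED4. STC1, a secreted glycoprotein, had nearly all its reads in A549, at 60.5 CPM with S2101 and 402 CPM with GSK126 (-2.72 ± 0.30). Each of these had an adjusted p of 0.523.

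The number of genes at 1 CPM or more was 13287, 14133 and 14009 with S2101, against 13099, 13564 and 13854 untreated. The count was higher with S2101 in 3 of 3 lines, by a mean of 304.0 ± 230.1 genes (SD), or 171.5 without the A549 pair. The exact two-sided sign-flip permutation test gave p = 0.25, the smallest that 3 pairs allow.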

How the data were processed

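Gene counts and RPKM values were deposited by the authors as 1 table per library, per the file headers, and the builds named are GRCh38 and hg38, per the submitters' processing notes. The sources used here do not give the aligner, counter or strand handling, so genes with near-identical copies and overlapping or antisense genes are uncertain. The members, lists and tests here were chosen with earlier results of these data known. RPKM served only to compare levels per length. The 25647 genes present in all 12 tables were used (1 was left out), after 25 of 26 symbols turned into dates were restored and the entry naming no gene in 11 tables was dropped. By their listed transcript identifiers, 24952 genes (97.3%) matched a RefSeq gene. Counts of the 9 libraries without TSA were tested with edgeR 4.0.16 (R 4.3.3, limma 3.58.1), TMM factors, the line as a term and Benjamini-Hochberg adjustment over all genes. The edgeR fit, over 9 and over 6 libraries, was first tried on simulated counts with known changes. DESeq2 1.42.0, a 6-library fit and other settings were alternatives. Pairing is by cell line, from the labels: deviations from the condition mean correlated at 0.95, 0.913 and 0.945 between the libraries of a line. Genes were named by rule: KDM1A, the 12 of lowest p in each direction moving one way in all lines at 5 CPM or more, the lowest p of each list, the 4 largest ratios per line and direction at 20 CPM or more, and the 5 of lowest p against GSK126 each way. Other genes named, among them most pathway members, were chosen after their values were seen. Sequences are RefSeq promoters of GRCh38.p14. Some genes that the rule or the lists held are not reported here by name.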

Additional observations from a re-analysis of the deposited data

Results flagged for a closer look

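Several results went one way in some lines and the opposite way in another. With 1 pair per line, none of these differences was tested. The ATF4 stress response list had median log2 ratios of 0.341 in MHCC97H and 0.481 in A549 but -0.679 in HCT116, the hypoxia list 0.208 and 0.227 but -0.206, and the YAP targets -0.648 and -0.79 but 0.25. Among single genes, CHAC1 had 2.67 and 1.87 in MHCC97H and A549 but -3.17 in HCT116, DDIT4 1.997 and 1.32 but -1.63, SESN2 0.54 and 1.02 but -2.17, and ARRDC4 0.32 and 1.27 but -2.51. DHRS2 had 0.30 in MHCC97H and 4.51 in A549 but -1.22 in HCT116.

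The A549 library given S2101 held transcripts of TSA-responsive genes at a median of 9.664% of their level in the A549 TSA library, in a readout outside the comparison with untreated cells.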

How the results depend on the processing

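The count of 0 called genes was also 0 with RLE size factors, at 10 CPM or more in 3 libraries, with all 12 libraries and with the TSA share subtracted from the A549 library. It was 37 with no filter on low counts, 25 with 6 libraries, 204 with DESeq2, 1 without the A549 S2101 library, and 0 to 1 leaving out a line. Without the replicate block (line as no term) it was 0, with 132 genes at an unadjusted p under 0.05, against 2300 with it. Chosen after the data were seen, the 6-library fit gave 25 with RLE factors, 25 with the TSA share subtracted, 423 without a filter, 756 with DESeq2 and 0 to 1066 leaving out a line (95 without A549). With a line left out, 4 libraries remain and the spread rests on 2 pairs. Against GSK126 there was 1 called gene without a filter and 24 with DESeq2. The 96 genes at least 1.5-fold higher and 21 lower became 42 and 12 with a pseudocount of 5 CPM, and 160 to 429 and 52 to 142 leaving out a line. KDM1A kept its direction at -0.17 to -0.39, and the gain in detected genes stayed between 171.5 and 378.5. Of 627 list medians under other settings 81 moved by more than the spread. The medians of 9 lists turned sign under at least 1 setting: deacetylase inhibitor genes (-0.15 with the TSA share subtracted, against 0.43), metallothioneins (-0.19 without A549, against 0.16), ATF4 (-0.22 without A549, against 0.03), NRF2 (-0.01 without HCT116, against 0.28), immediate early genes (-0.08 without MHCC97H, against 0.42), YAP (0.01 with 6 libraries without A549, against -0.28), WNT (0.01 without MHCC97H, against -0.04), liver (-0.24 without MHCC97H, against 0.08) and lung (0.42 without HCT116, against -0.21). The turn of the deacetylase inhibitor list came with a subtraction that lowers genes high with TSA by construction. The main fit called 0 genes, so it held no called value that could reverse. For the count of called genes, the cause of these moves was not tested. Depth limits genes near 3 reads.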
